A study of Rattus norvegicus with 10 samples.

Results

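Ventricular heart muscle cells from newborn rats, kept in culture without electrical pacing, are described here from 3 of the 10 arrays of a study on electric stimulation. The 3 arrays were chosen by their titles, which call them nonpulsed, and no measured value entered the choice. All came from Lewis rats aged 0 to 3 days, whose isolated ventricular cells were allowed to recover and were then kept untreated for 3 days. Each array held equal amounts of RNA pooled from duplicate experiments, and the 3 arrays belong to separate rounds of cell isolation and culture, called culture series 1, 2 and 3 below. The other 7 arrays, of paced cells with or without blebbistatin, were not used.

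Neonatal ventricular myocytes contract on their own in culture and still carry isoforms of the fetal heart together with those of the adult heart. A preparation of this kind also holds non-myocytes, mainly fibroblasts, which attach, divide and lay down matrix, so the RNA of a dish is a mixture. In such bulk RNA, fewer cells of a type and less RNA per cell cannot be told apart. The culture that receives no pacing is the baseline against which a study of stimulation is read.

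Values are log2 signal per probe set, a group of short probes for a transcript, and each gene is given by the probe set with the highest mean over the 3 arrays. After leaving out 57 control probe sets, 31042 remained, or 24433 features after 1 probe set was kept per gene, and 14217 of these have a gene symbol. The array medians were 6.65, 6.57 and 6.61 for culture series 1, 2 and 3, and equally ranked values differed by at most 0.155. The lowest level was 3.38, 3.38 and 3.32, shared by 2241, 2097 and 2295 probe sets, and 1441 probe sets (4.64%) and 381 named genes lay there on all 3 arrays. A value at this minimum has no measured level, so differences that reach it are lower bounds. The signal also depends on the probes, so the rank of a gene is its place among the values of the arrays and not an order of transcript amounts.

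Background was read from 59 measured genes that belong to other tissues, such as retina, liver, pancreas, testis and pituitary. Their 95th percentile, 6.90, 6.76 and 6.70 on the 3 arrays, served as the reference level. In a one-sided limma fit adjusted over all 24433 features, 8054 of 14217 named genes (56.7%) lay above it, and 8259 did so at an unadjusted p under 0.05. Every count of list members above this level, given below, is to be read beside that share of 56.7%. Of the reference genes themselves, 1 of 59 passed, Lhb, the beta subunit of luteinising hormone, at 7.73, 7.94 and 7.69. With 3 arrays, such p-values measure only the spread between these culture series.

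Culture series 1 stood apart from the other 2. By the dates in the array titles, series 2 and 3 lie close together in time and series 1 some months before them. The part of this spacing in the differences was not tested. The correlation over all probe sets was 0.974 between series 1 and 2, 0.979 between series 1 and 3, and 0.986 between series 2 and 3. Spiked hybridisation controls, added to every sample in fixed amounts, deviated by a median of -0.42, 0.36 and 0.02 from their own means, and scaling the arrays on them would move the median gene by 0.52, -0.52 and 0.01. That shift exceeds the size of most list differences given below, so every statement that a gene or list was higher or lower on an array holds on the deposited scale and can turn under such scaling. Centring the arrays on their medians would give 31.9% of named genes highest on series 1 in place of 38.5%, and 34.5% highest on series 2 in place of 26.4%. Signal at the 3′ end of beta-actin exceeded that at the 5′ end by 0.45, 0.68 and 0.63. This difference, which is smaller where RNA is more intact, was smallest on series 1. For GAPDH the same difference was 0.17, 0.06 and 0.17, and for hexokinase 0.85, 0.90 and 0.91. Another set of controls, 24 poly-A probe sets, deviated by a median of 0.24, 0.20 and -0.44, opposite in sign to the hybridisation controls on series 1. The part of these technical values in the differences between series was not tested.

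The brightest genes of the unpaced cultures combined protein synthesis, respiration, contraction and matrix. Among the 142 named genes that make up the top 1%, with means of at least 12.49, were 37 of 48 genes named Rpl or Rps, 13 of 29 of oxidative phosphorylation, 10 of 37 of the extracellular matrix and 9 of 23 of the sarcomere. COX1 and COX2, subunits of cytochrome c oxidase encoded in the mitochondrial genome, read 13.73, 13.71 and 13.71, and 13.66, 13.65 and 13.63. Nppa, the precursor of atrial natriuretic peptide, ranked second among named genes at 13.56, 13.69 and 13.71. The first 6 also held Tmsb4x, which encodes the actin-binding thymosin beta 4, the ribosomal Rps29, and Col3a1, a fibrillar collagen chain, at 13.62, 13.21 and 13.44. Over all 142 genes of the top 1%, the median range over the 3 arrays was 0.20 and the widest 0.89. The array maxima were 13.90, 13.97 and 13.92, and so close to the top of the scale differences can be compressed, so a narrow range there does not show a steady transcript level.

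Ribosomal protein genes lay within this bright zone, with list medians of 13.08, 12.98 and 12.98. The median range of the 14 genes was 0.11, against 0.37 over all 11878 named genes kept by a filter on low values. Throughout, figures for all named genes on ranges, deviations and the highest or lowest array refer to these 11878. Rpl26 read 13.40, 13.39 and 13.40, and Rpl3 read 13.24, 13.25 and 13.26. Bright features as a whole had narrower ranges: 0.525% of all features with means above 12 ranged over more than 2-fold, against 4.92% between 10 and 12 and 7.25% between the reference level and 10.

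The label of heart muscle cells was borne out by the defining markers. All 8 cardiomyocyte markers lay above the reference level, with medians of 11.52, 12.46 and 12.36. Myh6, the alpha myosin heavy chain of the rodent ventricle, read 12.57, 13.18 and 13.19. Tnnt2, cardiac troponin T, read 13.17, 13.40 and 13.25, while a second probe set for it read 5.51, 4.59 and 5.24, a reminder of how far probe sets of 1 gene can differ. Nkx2-5, a transcription factor of the heart lineage, read 9.53, 10.24 and 10.25. The lowest of the 3 values was that of series 1 for all 8 markers, while 40.3% of all named genes were lowest there.

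**Figure D1:**
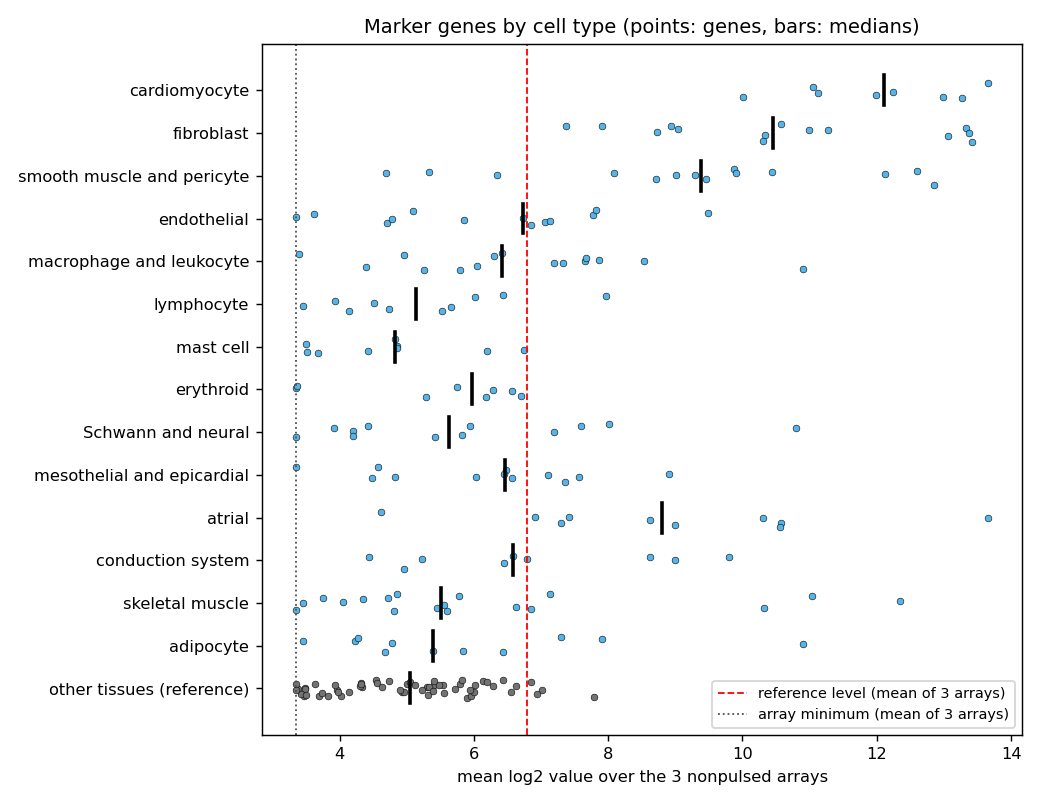
Mean log2 value over the 3 nonpulsed arrays (horizontal axis) of the measured marker genes of 14 cell types and of 59 genes of other tissues; each point is a gene, black bars are list medians, the dashed red line is the mean reference level and the dotted line the mean array minimum. All cardiomyocyte points lie right of the reference level, as do all fibroblast points, while mast cell and erythroid points lie left of it.

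All 23 measured genes of the sarcomere list were above the reference level. The thick filament was represented by Myh6 and Myh7, the slow beta heavy chain (12.78, 13.29 and 13.02), and by Myl2, the ventricular regulatory light chain (13.10, 13.20 and 13.33). Ttn, the elastic giant protein of the sarcomere, read 11.32, 12.35 and 12.31, and Mybpc3, cardiac myosin binding protein C, read 10.31, 11.59 and 11.46. Des, the intermediate filament of muscle, read 11.71, 12.59 and 12.07. Relative to the 3-array mean of each gene, the list deviated by a median of -0.41, 0.26 and 0.14. Over all named genes the medians were -0.00, -0.01 and 0.03. On series 1, 23 of 23 genes of the list were lowest, against 40.3% of all named genes kept by the filter. For 7 of the 23 the range exceeded 2-fold, while 871 of 11878 named genes (7.33%) did so, a count that fell to 166 without series 1.

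Fetal isoforms were present beside adult ones. Acta1, skeletal alpha-actin, which the fetal heart also uses, read 11.58, 12.47 and 12.07, and Tnni1, the slow skeletal troponin I of the fetal heart, read 11.79, 12.45 and 12.04 beside 11.75, 12.28 and 12.31 for the adult cardiac Tnni3. Nppb, brain natriuretic peptide, read 12.48, 12.94 and 13.11, and Ankrd1, a stretch-responsive ankyrin repeat protein of muscle, read 13.22, 13.27 and 13.35. Of the T-type calcium channel genes, which are active in fetal heart, Cacna1g read 7.27, 7.52 and 6.74, and Cacna1h read 5.46, 8.11 and 7.06, below the reference level on series 1. Of 15 genes in the fetal program list, 12 lay above the reference level, and Hcn4, Cacna1g and Cacna1h did not pass.

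In several families the isoforms of other muscles lay near background. In the troponin families, Tnnt1, Tnnt3 and Tnnc2 of skeletal muscle stayed below the reference level on every array, at 4.31 to 5.42, 5.45 to 5.70 and 5.32 to 5.63, beside Tnnc1 of heart and slow muscle at 13.03, 13.35 and 13.25. Tnni2, the fast skeletal troponin I, lay close to the reference level at 6.75, 7.0 and 6.77 and did not pass. Atp2a2, the calcium pump of the cardiac reticulum, read 12.53, 13.10 and 13.20, and Atp2a1, that of fast skeletal muscle, read 4.77, 4.98 and 4.83. Among ryanodine receptors, Ryr2 of heart read 10.31, 11.46 and 11.37, while Ryr1 and Ryr3 stayed at 3.78 to 4.89 and 3.47 to 4.61. Only 3 of 18 skeletal muscle genes passed the test, namely Ckm, Casq1 and Myh1, and the myogenic factor Myod1 lay at the minimum on all 3 arrays.

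Myh1, a fast skeletal heavy chain, read 12.01, 12.46 and 12.57, but this value is uncertain. Its brightest probe set carries the suffix by which Affymetrix marks probes shared with other transcripts, and heavy chain genes are close copies. Of its 4 other probe sets, those without such a suffix also lay above the reference level, at 11.16, 12.27 and 11.74, and 9.79, 10.34 and 9.34. The other fast and developmental chains read much lower, with Myh4 at 3.76, 4.18 and 3.32 and Myh3 at 4.71, 5.08 and 4.40. Not all were at background: Myh2, another fast chain, read 8.01, 6.85 and 6.52, above the reference level on series 1 and 2, but did not pass.

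**Figure D2:**
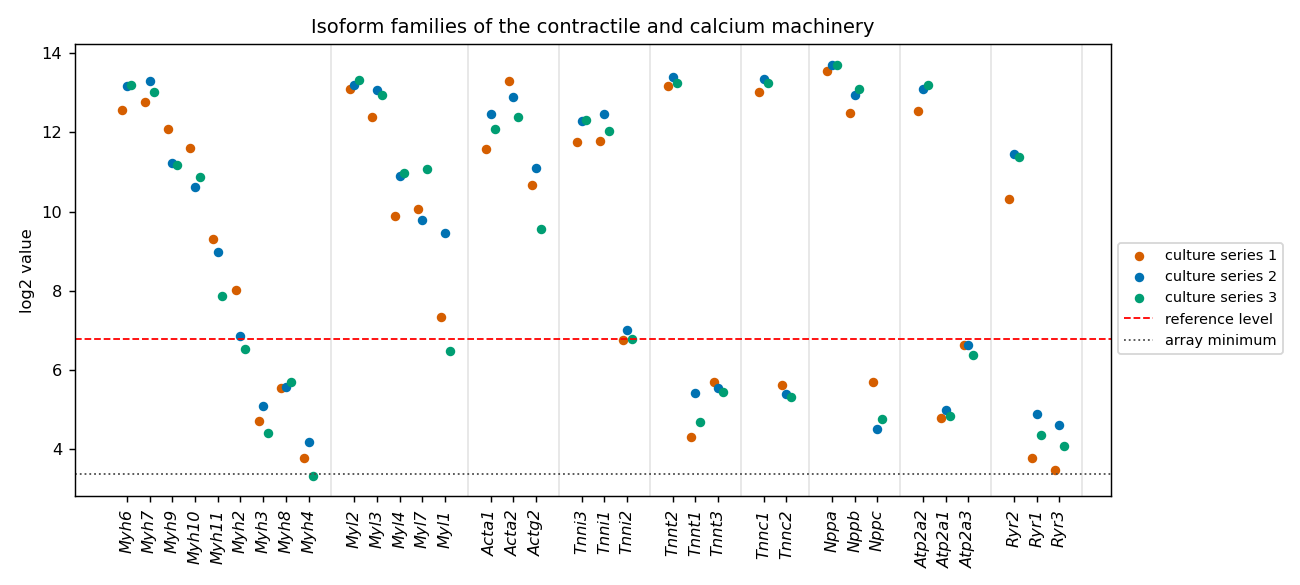
Log2 value (vertical axis) of isoforms in 9 families on each nonpulsed array, with colours for the culture series, a dashed line for the reference level and a dotted line for the array minimum. The cardiac member of the troponin T, troponin C, calcium pump and ryanodine receptor families lies above 10 on all 3 arrays and the skeletal members lie below the reference level.

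The balance within several isoform pairs moved between series by more than 2-fold. This balance is the difference of 2 probe sets on the same array, so it does not depend on how arrays are scaled, and only its change from array to array can be read. Ckb minus Ckm, the brain and muscle creatine kinases, was -0.36, -1.85 and -2.03, so series 1 lay on the side of the brain form. Acta1 minus Acta2, the skeletal and smooth muscle actins, was -1.71, -0.41 and -0.32, again with series 1 apart. Slc2a1 minus Slc2a4, the basal and the insulin-responsive glucose transporters, was 1.51, 0.64 and 0.48. This change was only just over 2-fold. With a second Slc2a4 probe set, at 7.65, 8.36 and 8.89, it stayed under 2-fold.

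In other pairs a different series stood out. Myl7 minus Myl2, the atrial and ventricular regulatory light chains, was -3.04, -3.41 and -2.26, with series 3 on the atrial side. Casq1 minus Casq2, the skeletal and cardiac calsequestrins, was -2.37, -1.29 and -2.49, with series 2 apart. Pdk1 minus Pdk4, kinases that switch off pyruvate dehydrogenase, was -1.78, -1.85 and -0.59, with series 3 apart. By their brightest probe sets, Myh7 minus Myh6 moved little, at 0.20, 0.11 and -0.17, and so did Ldha minus Ldhb at 0.27, 0.10 and 0.00. All of these probe sets lay near the top of the scale, where differences can be compressed. A dimmer probe set read 9.99, 11.15 and 11.28 for Myh6, and another 11.16, 11.94 and 11.46 for Myh7. The small change of the myosin pair therefore depends on the probe set.

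Genes of excitation covered a wide span of values. Of 32 measured ion channel and junction genes, 19 lay above the reference level, near the 56.7% of all named genes, and of 21 calcium handling genes, 16 did. Gja1, connexin 43 of the gap junctions, read 11.77, 12.69 and 12.81, and Cdh2, the cadherin of the intercalated disc, read 11.49, 11.61 and 11.54. Cacna1c, the pore of the L-type calcium channel, read 8.28, 8.78 and 8.51, and Slc8a1, the sodium-calcium exchanger, read 11.40, 11.78 and 11.83. Pln, the inhibitor of the reticular calcium pump, read 13.01, 13.26 and 13.29.

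Several potassium channel genes of the adult rodent ventricle did not pass. Kcnj2, an inward rectifier, read 4.52, 4.31 and 4.48, Kcna4 read 4.55, 4.93 and 5.36, and Kcnd2 read 5.11, 5.17 and 5.56. Kcnip2, the accessory subunit of the transient outward current, read 4.55, 6.29 and 8.25, so it was below the reference level on series 1 and 2 and above it on series 3. A second probe set for it read 3.38, 4.03 and 6.79 in the same order, and the third stayed at 5.05, 5.23 and 5.16. Kcne1, a small subunit of the slow delayed rectifier, read 4.30, 5.25 and 8.05, with series 3 alone above the reference level.

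Energy metabolism was expressed broadly. Above the reference level lay 30 of 30 fatty acid oxidation genes, 17 of 17 of the tricarboxylic acid cycle, 28 of 29 of oxidative phosphorylation and 24 of 28 of glycolysis. Fabp3, the fatty acid binding protein of heart, read 12.35, 12.88 and 13.00, Cpt1b, the muscle gatekeeper of mitochondrial fatty acid import, read 10.11, 10.97 and 11.05, and Atp5f1b, the catalytic subunit of ATP synthase, read 13.01, 13.16 and 13.18. Cox7a1, the muscle form of an oxidase subunit, was the exception in oxidative phosphorylation at 4.84, 5.48 and 6.02. Glycolytic enzymes were bright as well, with Aldoa at 12.64, 12.88 and 12.94 and Pgk1 at 12.38, 12.67 and 12.59.

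The metabolic lists were lowest on series 1, as the sarcomere list was. Series 1 was lowest for 29 of 29 genes of oxidative phosphorylation and 17 of 17 of the tricarboxylic acid cycle. The same held for 27 of 30 of fatty acid oxidation and 24 of 28 of glycolysis, against 40.3% of all named genes. In that order, the median deviations on series 1 were -0.29, -0.36, -0.38 and -0.24. Most single differences were small: the range exceeded 2-fold in 3 of 29, 0 of 17, 2 of 30 and 4 of 28 genes. Among all named genes kept by the filter, 7.33% ranged over more than 2-fold. Ppargc1a, a coactivator that drives mitochondrial genes, read 7.94, 8.44 and 9.0, and its relative Ppargc1b read 5.98, 6.96 and 8.05. The nuclear receptor Ppara read 4.04, 3.84 and 4.73 and did not pass, whereas Esrra read 9.38, 9.58 and 9.44. Of 23 regulators, 14 lay above the reference level, near the 56.7% of all named genes. Of the 22 kept by the filter, 19 were lowest on series 1.

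Cholesterol synthesis formed its own order. All 16 measured genes lay above the reference level, and 14 of 16 were highest on series 3, where 35.1% of all named genes were highest. Msmo1, a methylsterol oxidase of the pathway, read 11.45, 11.94 and 12.22, and Cyp51, the lanosterol demethylase, read 11.40, 11.70 and 12.02. None of the 16 ranged over more than 2-fold. Scd, which desaturates fatty acids, read 7.26, 7.47 and 9.11, more than 2-fold above both other arrays on series 3.

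Fibroblast genes were prominent in all 3 cultures. Of 14 markers, 12 lay above the reference level, with list medians of 10.70, 10.04 and 10.43. Col1a1, the main chain of type I collagen, read 13.52, 13.22 and 13.23, and Postn, the matricellular protein periostin, read 13.35, 12.67 and 13.15. Their ranges were 0.30 and 0.69.

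Markers of the resident fibroblast, which lie lower on the scale, differed more between series. Dpt, the matrix protein dermatopontin, read 10.75, 7.13 and 9.25, and its second probe set 10.16, 6.29 and 8.63. Tcf21, a transcription factor of cardiac fibroblasts, read 9.86, 7.68 and 9.28, and Pdgfra, their growth factor receptor, read 9.70, 7.67 and 8.82. Dcn, the proteoglycan decorin, read 12.13, 9.67 and 11.18, and Lum, the related lumican, 12.42, 10.18 and 11.20. All 5 were highest on series 1 and lowest on series 2. Over the list, 13 of 14 genes were highest on series 1, against 38.5% of all named genes, and 13 of 14 were lowest on series 2, against 35.4%, with median deviations of 0.61, -0.59 and 0.03.

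The extracellular matrix list followed series 1 in the same way. Above the reference level lay 35 of 37 genes. Of the 36 kept, 35 were highest on series 1, against 38.5% of all named genes, with median deviations of 0.37, -0.20 and -0.12. Eln, elastin, read 12.03, 10.21 and 10.77, and Fbln5, an organiser of elastic fibres, read 9.55, 7.87 and 8.03. Fn1, fibronectin, read 13.26, 13.14 and 13.02. Mmp3, a matrix protease, read 3.56, 3.52 and 3.53, close to the minimum.

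Of the smooth muscle and pericyte markers, 11 of 14 lay above the reference level, against 56.7% of all named genes. They gave yet another order. Acta2, smooth muscle alpha-actin, which activated fibroblasts and young cardiomyocytes also use, read 13.29, 12.89 and 12.39. Myh11, the smooth muscle heavy chain, read 9.30, 8.97 and 7.87, and Cnn1, calponin, read 10.74, 10.85 and 9.72. Actg2, the enteric smooth muscle actin, read 10.66, 11.11 and 9.57. Myh11, Cnn1 and Actg2 were each lower on series 3 than on both other arrays by more than 2-fold. In the list, 9 of 13 genes were lowest on series 3, where 24.3% of all named genes were lowest.

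Macrophage genes showed the widest shift of any cell type list. Of 15 markers, 6 lay above the reference level, and the defining Cd163 lay at or near the minimum at 3.50, 3.38 and 3.32. Lyz2, lysozyme of myeloid cells, read 11.90, 10.90 and 9.90, Cd68, a lysosomal marker of macrophages, read 9.54, 8.31 and 7.75, and Csf1r, the receptor for their growth factor, read 7.29, 6.33 and 5.29. Ptprc, the pan-leukocyte antigen CD45, read 8.90, 7.16 and 6.91. Series 1 was highest for 11 of the 12 genes kept, against 38.5% of all named genes. Series 3 was lowest for 11 of 12, against 24.3%, and the median deviations were 0.97, -0.20 and -0.72.

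**Figure D3:**
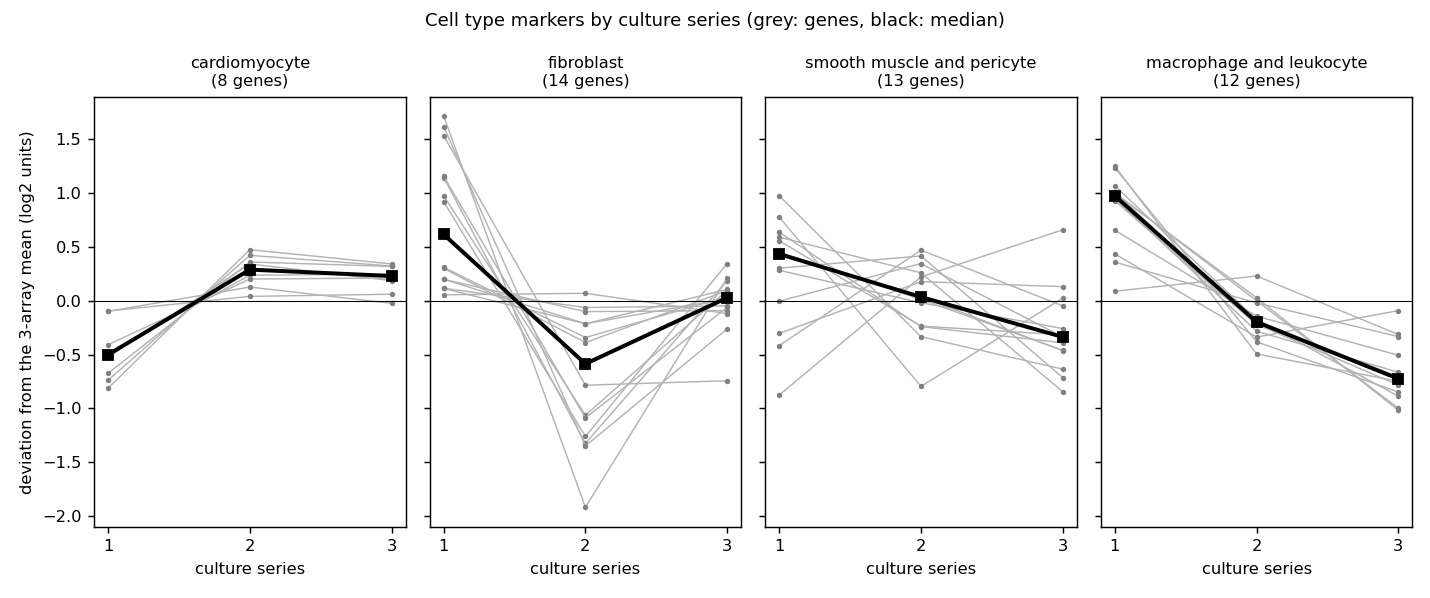
Deviation of each marker gene from its 3-array mean in log2 units (vertical axis) by culture series (horizontal axis) for 4 cell types; grey lines are genes kept by the filter and the black line is their median. Cardiomyocyte genes are lowest on series 1, fibroblast genes lowest on series 2, and macrophage genes highest on series 1 and lowest on series 3, at medians of 0.97, -0.20 and -0.72.

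The balance between lists on the same array put a size on these orders. The median deviation of cardiomyocyte markers minus that of fibroblast markers was -1.11, 0.87 and 0.20, a span of 1.99 or 3.97-fold between series 1 and 2. Against smooth muscle markers the same difference was -0.93, 0.25 and 0.56, a span of 2.82-fold, and against macrophage markers it was -1.47, 0.48 and 0.95, a span of 5.36-fold. Series 1 was thus the array with the least cardiomyocyte signal relative to each of the 3 other lists. Differences of the contractile and metabolic genes moved together with these markers, and the part of the cell mixture in them was not tested.

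Endothelial markers were near background. Above the reference level lay 3 of 13: Eng, a coreceptor of TGF-beta that fibroblasts also carry, at 9.93, 9.29 and 9.23, and the VEGF receptors Flt1, at 8.43, 7.04 and 7.98, and Kdr, at 7.15, 8.06 and 8.11. The defining genes Vwf and Pecam1 stayed at 3.49 to 3.78 and 4.16 to 5.42, and Nos3, endothelial nitric oxide synthase, lay at the minimum on all 3 arrays. Blood cells were also near background. None of 8 erythroid and none of 9 mast cell genes passed, with Hbb, the beta-globin, at 5.47, 6.11 and 5.67. Among 10 lymphocyte genes, Cd8a alone passed, at 8.39, 7.34 and 8.16, beside 4.69, 6.35 and 5.93 for the T cell receptor subunit Cd3e and 3.38, 3.69 and 3.32 for the B cell antigen Ms4a1.

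Neural and surface-layer cells left few traces. Of 12 Schwann and neural genes, 3 passed: S100b, Mbp and Pmp22, the last at 11.46, 10.31 and 10.64. Sox10, which defines Schwann cells, stayed at 4.11, 3.70 and 3.94, and Chga lay at the minimum throughout. Of 12 mesothelial and epicardial genes, 3 passed, among them Aldh1a2, the retinoic acid producing enzyme of the epicardium, at 9.52, 8.40 and 8.78, whereas Wt1 read 6.93, 5.77 and 6.72 and Msln 4.68, 5.13 and 4.69. Of 11 adipocyte genes, 3 passed, while Adipoq, adiponectin, did not, at 5.29, 5.79 and 5.08. Cidea, a lipid droplet protein, read 10.50, 11.09 and 11.12.

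Genes of the atria were measurable in these ventricular cultures. Above the reference level lay 8 of 10, against 56.7% of all named genes. They included Nppa, which is also an early ventricular gene, Myl4 at 9.88, 10.89 and 10.98, and Myl7 at 10.05, 9.80 and 11.07. Sln, the atrial regulator of the calcium pump sarcolipin, read 8.48, 8.42 and 10.07. Myl7 and Sln were more than 2-fold higher on series 3 than on both other arrays, a pattern that 24 named genes (0.202%) shared. Kcna5, an atrial potassium channel, did not pass at 5.21, 4.23 and 4.43. Of 9 conduction system genes, 3 passed, and the pacemaker genes Hcn4, Tbx3, Shox2 and Isl1 did not, with Hcn4 at 6.87, 6.46 and 6.43.

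Cell division genes were on in the cultures. Of 31 cell cycle genes, 29 lay above the reference level, against 56.7% of all named genes, with medians of 9.06, 8.55 and 8.58. Mki67, a marker of cycling cells, read 9.12, 8.55 and 8.58, Top2a, the topoisomerase of dividing cells, read 9.86, 9.13 and 9.03, and Cdk1, the mitotic kinase, read 9.98, 9.46 and 9.46. Series 1 was highest for 26 of 31, against 38.5% of all named genes. Ccnd1 and Ccnd2, cyclins of the G1 phase, went the other way, at 10.96, 11.45 and 11.18, and 10.94, 11.40 and 11.19.

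**Figure D4:**
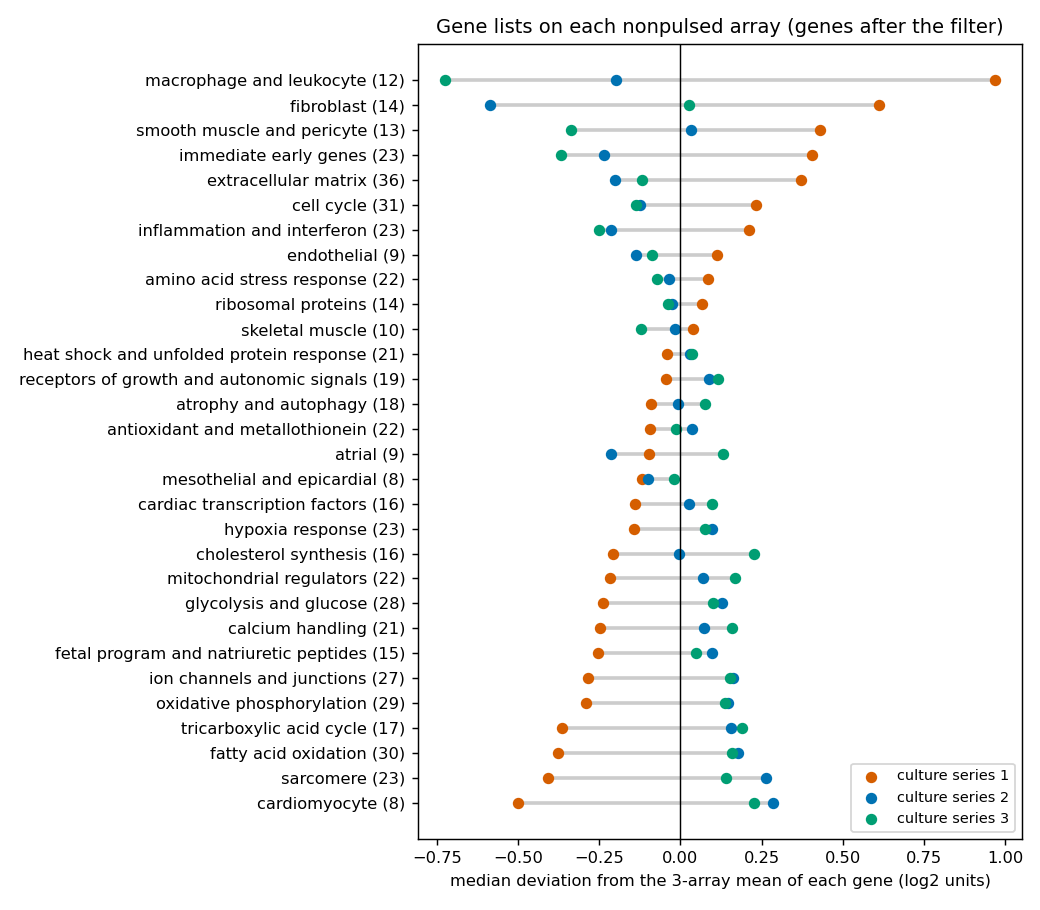
Median deviation from the 3-array mean in log2 units (horizontal axis) of each gene list with at least 8 genes after the filter, by culture series (colours), with the number of genes in brackets. Macrophage, fibroblast and matrix lists lie right of 0 on series 1, and sarcomere and mitochondrial lists lie left of 0 on series 1.

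Differences past 2-fold fell unevenly on the 3 arrays. Between series 1 and 2, 632 named genes (5.32%) differed by more than 2-fold, between series 1 and 3, 509 (4.29%), and between series 2 and 3, 166 (1.4%). A gene was counted as standing apart when 1 array differed from both others by more than 2-fold in the same direction, and 436 gene and array pairs met this, 315 of them (72.2%) on series 1. By direction they were 180 high (1.52%) and 135 low (1.14%) on series 1 (163 and 167 after median centring), 22 high (0.185%) and 61 low (0.514%) on series 2, and 24 high and 14 low (0.118%) on series 3. Of all named genes, 26.4% were highest on series 2.

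Immediate early genes, which switch on within minutes of a stimulus, were on without pacing. Of 23 measured, 19 lay above the reference level, against 56.7% of all named genes. Series 1 was highest for 20 of 23, against 38.5% of all named genes, with median deviations of 0.41, -0.23 and -0.37. Egr1, a zinc finger transcription factor, read 11.91, 9.86 and 9.86, and its relative Egr2 read 10.41, 8.0 and 8.38. Fos read 9.74, 7.92 and 8.28, Nr4a1, an orphan nuclear receptor, 10.51, 8.21 and 8.58, and Fosb 8.70, 5.95 and 5.09. Series 1 was more than 2-fold above both other arrays for each of these 5 genes. Jund went the other way, at 11.10, 11.95 and 11.18.

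Many genes of this class are known targets of serum response factor, which binds the CArG box. In the 250 bases before the annotated start site, on either strand, the box was found in 4 of 17 immediate early genes with a promoter entry (Egr1, Egr2, Dusp5 and Klf6) and in 412 of 27457 promoters of all genes (1.5%). The stretches around the boxes of the Egr genes that stood apart on series 1 are shown because both hold the same letters at the same distance from the start, 83 bases before it. They are RefSeq sequences of the rat build GRCr8, chr18:26736948-26737047 on the plus strand for Egr1 and chr20:21054472-21054571 on the minus strand for Egr2, with the boxes in capitals. A match describes the letters only.
Egr1: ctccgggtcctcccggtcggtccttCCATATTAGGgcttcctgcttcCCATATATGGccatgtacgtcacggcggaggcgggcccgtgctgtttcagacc
Egr2: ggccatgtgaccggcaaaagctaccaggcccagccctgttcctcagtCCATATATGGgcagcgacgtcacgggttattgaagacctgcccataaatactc

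Inflammatory genes were mixed. Of 28 measured, 10 lay above the reference level, against 56.7% of all named genes. Among them were Ccl2, a chemokine for monocytes, at 12.03, 11.01 and 11.07 and Ptgs2, the inducible cyclooxygenase, at 10.52, 10.24 and 9.87. Il6 and Il1b did not pass, at 4.14, 3.42 and 3.32, and 5.24, 5.15 and 4.63. Cxcl1, a chemokine for neutrophils, read 7.52, 4.34 and 4.32, and Tnfaip6, a hyaluronan-binding protein of inflamed tissue, read 7.93, 4.55 and 4.97, both above the reference level on series 1 alone. Errfi1, an inhibitor of the EGF receptor, read 10.67, 7.60 and 7.78. Agtr1a, the angiotensin receptor, read 8.36, 5.70 and 6.16, and its other probe set followed at 7.36, 4.42 and 5.29.

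Targets of interferon differed in another way. The list of these genes was drawn up after some of their values were seen, so its counts are a description only. Of 18 genes kept by the filter, 14 were highest on series 3, where 35.1% of all named genes were highest. Isg15, a ubiquitin-like protein, read 6.74, 6.81 and 8.63, and Irf7, a transcription factor of the response, read 6.91, 7.17 and 8.41. Mx1, an antiviral GTPase, read 6.34, 6.29 and 7.39. Usp18, which removes Isg15 from proteins, read 5.40, 6.66 and 7.79, and Rsad2, viperin, read 3.38, 3.45 and 6.09. Ifit1 did not share this order, at 5.78, 5.65 and 5.29. For Mx2 the probe sets differed, both below the reference level throughout. The one that stands for the gene read 4.92, 5.36 and 5.14, while the other, at 3.87, 4.95 and 6.58, was highest on series 3.

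Interferon-responsive promoters often hold GAAA repeats. A pair of GAAA blocks with any 2 bases between them, searched on both strands, was found in the 250 bases before the start of 9 of 14 of these genes and of 902 of 27457 of all genes (3.29%). The Irf7 stretch is shown as that of a gene which stood apart on series 3, from RefSeq, GRCr8, chr1:205800044-205800143 on the minus strand. Its match lies on the opposite strand, so the capitals mark the reverse complement, and its first printed base is 69 bases before the start.
Irf7: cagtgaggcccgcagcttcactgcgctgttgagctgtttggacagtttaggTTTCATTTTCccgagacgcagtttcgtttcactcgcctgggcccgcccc

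Some targets of the aryl hydrocarbon receptor, a sensor of planar aromatic compounds, were low on series 1, and Cyp1a1 had the widest range of any named gene after Xist. Of 8 genes kept by the filter, 5 were lowest on series 1, where 40.3% of all named genes were lowest, and 3 were highest there. This list, too, was drawn up after values were seen. Cyp1a1, the oxidase that marks activity of the receptor, read 3.73, 10.11 and 8.88, and as it was below the reference level on series 1 no exact fold is given. Aldh3a1, an aldehyde dehydrogenase, read 4.89, 8.65 and 7.46, and Ahrr, the repressor of the receptor, read 6.43, 8.25 and 7.92. All 3 genes were below the reference level on series 1 and above it on series 2 and 3. Tiparp and Nqo1 followed the same order over smaller ranges, at 10.02, 10.79 and 10.43, and 11.18, 12.32 and 11.60. Cyp1b1 did not, at 12.20, 12.15 and 11.79, nor did Cyp1a2, below the reference level throughout at 4.10, 3.92 and 3.72, nor did the receptor itself, Ahr, at 7.08, 6.17 and 6.55.

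The receptor binds sites with the core GCGTG, and the Ahrr promoter is shown because it holds 3 of them close to the start. On either strand, the core was present in the 250 bases before the start of 5 of 7 genes of this list with a promoter entry and of 7459 of 27457 of all genes (27.2%), so a match is common. The stretch is RefSeq GRCr8 chr1:30822059-30822178 on the plus strand, with 3 matches in capitals that begin 142, 117 and 57 bases before the start.
Ahrr: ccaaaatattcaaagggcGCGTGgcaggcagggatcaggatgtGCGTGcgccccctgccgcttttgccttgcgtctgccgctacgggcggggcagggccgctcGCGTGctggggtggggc

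The widest range of any named gene was that of Xist, the RNA that silences an X chromosome in female cells. It read 10.00, 8.40 and 3.32, at the minimum on series 3, so it was at least 103-fold higher on series 1 than on series 3. All 4 of its probe sets lay at 3.32 on series 3 and at 6.34 or more on the other 2 arrays. The Y-linked genes Eif2s3y and Uty were above the reference level on all arrays, at 9.54, 10.14 and 10.44, and 8.84, 8.70 and 8.77. The labels used here give no sex for the pups.

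Single genes set series 2 apart. Gdf15, a stress hormone of the TGF-beta family, read 5.44, 9.17 and 5.98, above the reference level on series 2 alone. Myl1, the essential light chain of fast skeletal muscle, read 7.34, 9.47 and 6.48, and Casq1 read 9.65, 11.38 and 9.93. Rps27l, a target of p53, read 7.79, 9.41 and 8.02. Other genes of the amino acid stress list did not share the size of the Gdf15 difference: Chac1 read 7.90, 9.67 and 8.78, Trib3 read 9.02, 8.92 and 8.89, and Atf4 read 11.97, 12.05 and 12.19. Low on series 2 were Igfbp3, a binding protein of insulin-like growth factors, at 8.33, 5.97 and 8.37, and Abca8a, a transporter, at 8.01, 5.02 and 7.70.

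**Figure D5:**
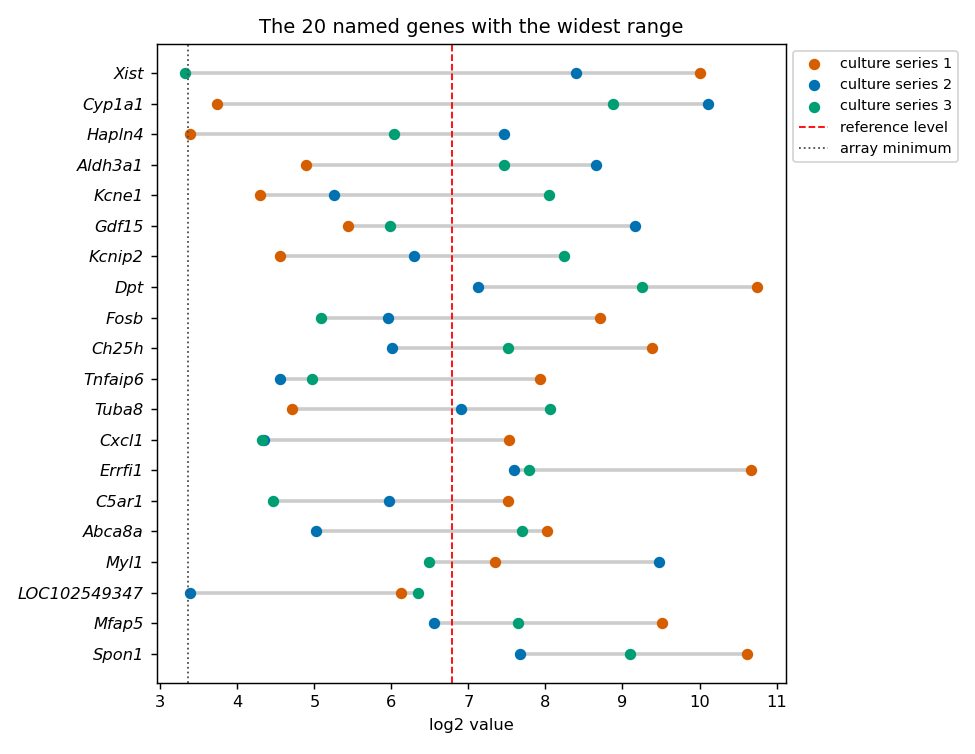
Log2 value (horizontal axis) on each nonpulsed array, by culture series (colours), of the 20 named genes with the widest range; the dashed line is the mean reference level and the dotted line the mean array minimum. Xist spans 3.32 to 10.00 and Cyp1a1 3.73 to 10.11, and most of the 20 genes cross the reference level.

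Stress proteins were expressed throughout. All 21 measured genes of the heat shock and unfolded protein lists lay above the reference level, with a median range of 0.35, near the 0.37 of all named genes, and 1 gene over 2-fold, Ddit3, at 8.57, 9.66 and 9.93. Cryab, the small heat shock protein abundant in muscle, read 13.20, 13.37 and 13.29. Of 23 hypoxia genes, 18 passed, against 56.7% of all named genes, with Vegfa at 9.93, 10.44 and 10.35. Mt2A, a metal-binding metallothionein, was more variable, at 9.34, 7.10 and 7.87.

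Of 20 measured receptors through which the heart is regulated, 10 lay above the reference level, near the 56.7% of all named genes, with list medians of 6.99, 7.28 and 7.51. Adrb1, the main beta-adrenoceptor of the heart, did not pass at 6.30, 6.44 and 6.22, and Chrm2, the muscarinic receptor, did not at 6.91, 7.28 and 7.35. Adra1b, an alpha 1 adrenoceptor, passed at 7.75, 8.58 and 8.65, as did Igf1r at 8.94, 9.21 and 9.32 and the thyroid hormone receptors Thra, at 8.52, 8.58 and 8.23, and Thrb, at 8.38, 8.82 and 8.77. Cardiac transcription factors were better represented, with 14 of 17 above the reference level and none over 2-fold in range, among them Gata4 at 10.34, 10.62 and 10.40 and Mef2c at 9.65, 10.15 and 10.47. Of 18 genes of muscle atrophy and autophagy, 16 passed. Trim63, a ubiquitin ligase of muscle wasting, read 8.87, 9.95 and 10.21, and its partner Fbxo32 did not pass at 5.34, 5.35 and 5.98.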

How the data were processed

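Trizol-extracted total RNA was labelled with biotin for Affymetrix rat arrays, as the labels' protocols say. The deposited values are log2 signals per probe set; the submitters' processing notes name PLIER and Affymetrix Expression Console 1.1, with no settings. That the base is 2 was read from the deposited log2 values, whose minimum is 10.0 to 10.4 on the linear scale. No further scaling was applied, and 7 columns of other groups were not used. Symbols came from the platform annotation (20832 probe sets with 1 symbol, 436 with several, 9831 with none), and 0 needed an update against GRCr8 gene names.

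Log2 values minus the reference level of their array entered a 1-group limma fit (version 3.58.1, R 4.3.3, eBayes, one-sided, Benjamini-Hochberg, threshold 0.05). The fit was also run on simulated data with independent noise for each gene and a known reference level. That run does not cover error in the reference level itself, which shifts all genes of an array together. Ranges and deviations carry no test and leave out features in the lowest 25% of probe set means (below 5.05). Values within 0.01 of the minimum counted as lying there. Named genes were the 20 brightest, the 20 widest in range, up to 6 per array and direction standing apart, the highest, lowest and widest members of each list and the isoform families, of which a selection is printed. Other list members and second probe sets were named to show a role, after their values were seen. Members and lists were chosen with earlier results of these data known, and the aryl hydrocarbon receptor, interferon and sex chromosome lists after values were seen. Alternatives covered scaling, filter, probe set choice, thresholds and left-out arrays. For arrays, their number limits the precision.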

Additional observations from a re-analysis of the deposited data

How the results depend on the processing

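The count of named genes above the reference level, 8054, stayed between 6671 and 11354 under other reference levels, scalings and fits, was 7052 with the mean and 6043 with the lowest probe set of a gene, and between 7733 and 8047 when an array was left out. The 871 genes ranging over 2-fold became 407 among genes above the reference level, 3020 at 1.5-fold, 225 at 3-fold and 6607 after scaling on hybridisation controls (chosen after seeing the data), and 166 to 632 with an array left out, 166 being without series 1. Under that scaling the 436 cases standing apart became 1887: 1348 high and 9 low on series 1, 2 high and 496 low on series 2, and 8 low on series 3. Without the filter, 46 were high on series 2 and 29 low on series 3. Probe sets at the minimum on all arrays rose from 1441 to 2424 within 0.5 of it. The median deviation of myosin heavy chains on series 1 went from 0.25 to -0.0059 and that of mesothelial genes on series 2 from -0.10 to 0.0838 without the filter; the added genes are dim. The median levels of 68 lists moved in 38 with the lowest probe set (by up to -2.98) and in 30 with the mean of probe sets (by up to -1.59). Other list deviations kept their sign under the scalings to quantiles and medians and the mean of probe sets, where they were over 0.1. Signal near the minimum and the small number of arrays limit what dim genes can show. No paired analysis was possible because each culture series has 1 nonpulsed array and every result comes from 1 group.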

Other observations

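A few genes outside the groups described so far also set culture series apart. Cyp26b1, which degrades retinoic acid, read 8.15, 11.07 and 10.39 on series 1, 2 and 3, and its second probe set 5.48, 8.03 and 7.48, so series 1 was lower than both others by more than 2-fold on each. Rrad, a small GTPase that restrains calcium channels in muscle, read 8.52, 10.46 and 10.41. Hapln4, a link protein of the neural matrix, read 3.38, 7.47 and 6.03, but its other probe sets stayed at 5.59, 5.34 and 5.03, and 5.19, 5.08 and 4.75. Scn7a, a sodium channel relative, read 7.58, 5.21 and 7.13 and was lowest on series 2, as the resident fibroblast markers were.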
